A study of Homo sapiens with 20 samples.

Results

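The genes described here are 9 members of the PARP family and DTX3L, 10 of the 43366 genes that were counted. They were chosen by name: PARP9, DTX3L, PARP14, PARP10, PARP12, PARP8, ZC3HAV1 (also known as ZAP or PARP13), PARP3, PARP1 and PARP2. Their mRNA was measured by RNA-seq in U2OS, a human osteosarcoma cell line, in 5 WT clones and 5 clones labelled as knockouts (KO) of ZBTB48, a zinc finger protein that binds telomeres and promoters. Each clone gave 1 untreated library and 1 library after 24 h with 250 U/ml IFNγ, which makes 4 groups of 5 and 20 libraries of poly(A) RNA. The clones are the replicates, each of them the descendants of a single cell, and the mutation carried by each KO clone is not in the labels. WT and KO clones carry different numbers and were grown from different cells, so a genotype comparison here is a comparison between 5 and 5 clonal lines.

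PARP enzymes take ADP-ribose from NAD+ and attach it to proteins or nucleic acids, either as single units or as chains. PARP1 and PARP2 are switched on by DNA strand breaks and build chains, and PARP3 also answers to breaks but adds single units. PARP8, PARP10, PARP12 and PARP14 add single units, PARP9 acts in a complex with the ubiquitin ligase DTX3L, and ZC3HAV1 has no catalytic activity and binds viral RNA rich in CpG. IFNγ signals through the kinases JAK1 and JAK2 to transcription factors that bind GAS elements, while IRF1 and complexes that contain IRF9 bind ISRE elements. Several PARP genes are known as interferon-stimulated genes in many cell types.

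Total counts per library ranged from 46652288 to 72952859. CPM here is a count relative to its library's total after TMM scaling in edgeR, and 3 counts, taken as the floor, came to 0.0409 to 0.0608 CPM, far below the members' lowest level. The osteoblast marker RUNX2 (18.6 to 90.4 CPM), COL1A1 and SPARC were expressed in every library, and CDKN2A, which is silenced in U2OS cells, did not exceed 0.0202 CPM. ALPL, another osteoblast marker, ranged from 0.986 to 22.2 CPM. Among markers of other cells, the neural SNAP25 lay between 4.95 and 21.3 CPM and the epithelial EPCAM reached 12.55 CPM. The other such markers looked at stayed at 4.61 CPM or less. ZBTB48 itself lay between 8.05 and 9.19 CPM in the untreated WT libraries and at 1.27, 1.94, 11.3, 3.18 and 4.04 CPM in the untreated libraries labelled KO 1 to 5. KO replicate 3 was therefore above the WT range at the mRNA level, also after IFNγ (16.0 CPM), and groups are named by their labels throughout. An mRNA level does not show whether the protein was lost. The paper reports little or no CIITA, HLA-DMB and CD74 protein in any of its IFNγ-treated U2OS KO clones. The label gives the clone of each library, but the treated and untreated libraries of KO replicates 4 and 5 did not resemble each other as those of other clones did, and the treated library of each correlated best with the untreated library of the other. The IFNγ response of the KO label is therefore also given without these 2 clones.

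Of the members, 3 lie side by side on chromosome 3 of GRCh38. PARP9 (122527924 to 122564784, minus strand) and DTX3L (122564338 to 122575203, plus strand) start head to head, and their annotated exons share 175 bases on opposite strands. PARP14 (122680839 to 122730840, plus strand) follows, with PARP15 between it and DTX3L. PARP3 lies elsewhere on chromosome 3 (51942363 to 51948867), PARP12 (140023749 to 140062951) and ZC3HAV1 (139043515 to 139109720) on chromosome 7, PARP8 (50665931 to 50846519) on chromosome 5, PARP1 (226360691 to 226408093) on chromosome 1 and PARP2 (20343635 to 20357904) on chromosome 14. The libraries were stranded, but the strand setting of the counting is not given in the sources used here, so reads from the shared 175 bases cannot be assigned, and PARP10 shares 197 exonic bases with SPATC1 in the same way.

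Start-site windows from RefSeq (GRCh38.p14), 250 bases before to 50 bases after each start, were found for 9 of the 10 members and searched on both strands for 2 motifs of the interferon pathway. The first was the ISRE core, spelled GAAANNGAAA, found in 1255 of 35114 windows of that length (3.57%). The other was the GAS motif, spelled TTCNNNGAA, found in 2689 windows (7.66%), and 154 windows (0.439%) held both. A stretch of 130 bases, from 100 before the start to 30 after it, is shown for DTX3L, PARP14 and PARP12, which hold an ISRE core close to the start, and for PARP3, which holds neither motif but was among the genes that changed. Capitals mark the motif matches, read 5′ to 3′ on the gene's own strand, and the match in PARP12 is on the opposite strand.
DTX3L, plus strand, chr3:122564238-122564367: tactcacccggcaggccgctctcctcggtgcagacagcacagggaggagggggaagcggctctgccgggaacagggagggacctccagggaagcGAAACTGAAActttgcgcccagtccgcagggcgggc
PARP14, plus strand, chr3:122680739-122680868: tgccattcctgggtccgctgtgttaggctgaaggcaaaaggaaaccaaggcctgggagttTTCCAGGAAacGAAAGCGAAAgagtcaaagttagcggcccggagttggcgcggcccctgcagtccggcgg
PARP12, minus strand, chr7:140062922-140063051: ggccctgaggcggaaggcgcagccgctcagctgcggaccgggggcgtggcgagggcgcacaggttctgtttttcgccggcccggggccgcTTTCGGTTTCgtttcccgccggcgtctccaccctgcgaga
PARP3, plus strand, chr3:51942263-51942392: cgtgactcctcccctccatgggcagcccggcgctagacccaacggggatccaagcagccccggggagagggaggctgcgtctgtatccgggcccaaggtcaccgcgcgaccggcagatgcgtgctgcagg

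The ISRE core of DTX3L begins at position -6 from its start, that of PARP12 at -10 and that of PARP14 at -29, with a GAS match at -40 in PARP14. PARP9 has 2 windows in the table, and the second shares 137 bases with the window of DTX3L. That shared stretch contains the same ISRE core (chr3:122564332-122564341), at -41 from the PARP9 start of that window. Both genes of the head-to-head pair therefore have these 10 bases in a window. ZC3HAV1 (-104) and PARP2 (-154) hold a GAS match only. PARP1, PARP3, all 3 windows of PARP8 and the first window of PARP9 hold neither motif. A match describes letters in a window and was not tested for binding.

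Comparing untreated with IFNγ-treated libraries asks which members answer to the cytokine. In the WT clones 7 of the 10 members rose by edgeR's quasi-likelihood test, at cut-offs of more than 2-fold and an adjusted p under 0.01, where 2.48% of the 19522 genes tested rose. PARP14, PARP9, DTX3L, PARP10, PARP12, PARP3 and PARP8 rose, by 8.17-fold at most and 2.27-fold at least, whereas PARP1, PARP2 and ZC3HAV1 did not pass. The median log2 fold change was 1.76 over the 10 members and -0.03 over all genes tested. The members were chosen with earlier results of these data known, so these contrasts with all genes are descriptions and no test of the set. In the clones labelled KO the same cut-offs were passed by 5 of the 10, where 1.70% of 19385 genes rose, and PARP10 and PARP8 missed the cut-off on p at log2 fold changes of 2.06 and 1.25. Without KO replicates 4 and 5 together, 0 of 10 members and 22 of all genes were called there by edgeR. The log2 fold changes were then 3.04 for PARP14 (edgeR adjusted p = 0.0197), 2.72 for DTX3L (0.108), 2.65 for PARP9 (0.106), 2.02 for PARP10 (0.353), 1.86 for PARP12 (0.0153), 1.44 for PARP3 (0.204) and 1.29 for PARP8 (0.282), each with its edgeR adjusted p, from 3 against 3 libraries. At an adjusted p under 0.05 and any size of change, 7 members passed in each genotype, against 11.3% and 7.88% of all genes in either direction. None of these fits paired the libraries by clone. Paired by clone as labelled, at the cut-offs on p of 0.01 and 2-fold, 7 members were called in WT clones. In those labelled KO 6 were, with PARP8 among them. In bulk libraries such as these, more cells that express a gene and more RNA per cell cannot be told apart.

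**Figure D1:**
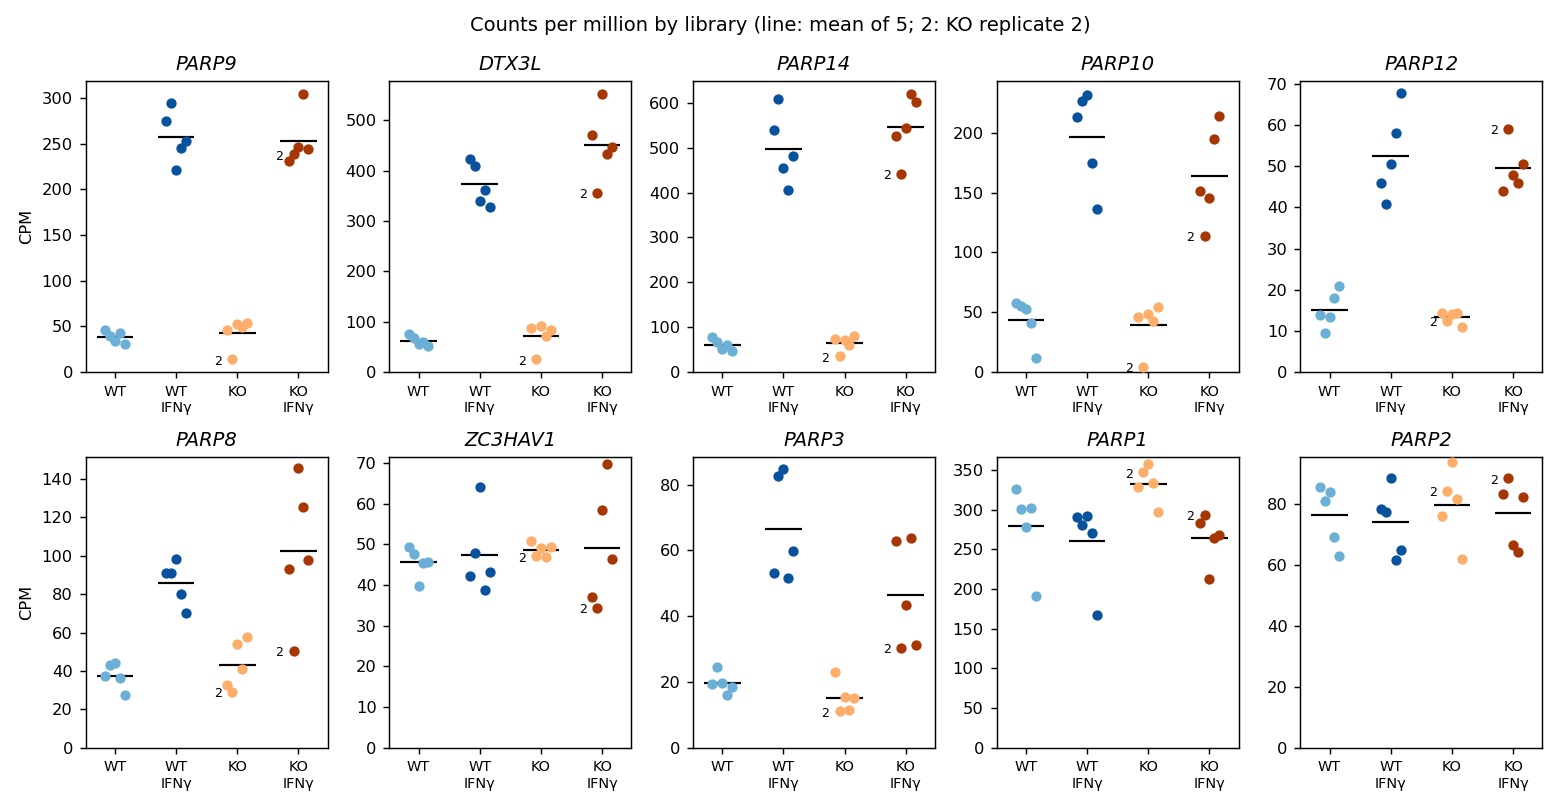
CPM of the 10 members (one panel each, y axis in CPM from 0) in each of the 20 libraries, grouped by genotype and treatment, with a line at each group's mean of 5 and a 2 beside KO replicate 2. PARP9, DTX3L and PARP14 form 2 separate bands by treatment, PARP1, PARP2 and ZC3HAV1 do not, and untreated KO replicate 2 is lowest for PARP9 (13.8 CPM), DTX3L (25.55 CPM), PARP14 (34.9 CPM) and PARP10 (4.20 CPM).

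PARP9, which has macrodomains that bind ADP-ribose, had 46.1, 39.1, 34.1, 42.7 and 30.25 CPM in the untreated WT clones 1 to 5 and 275, 294, 221, 245 and 253 CPM after IFNγ. The untreated libraries labelled KO had 45.7, 13.8, 52.6, 49.5 and 54.1 CPM, and the treated ones 231, 238, 246, 304 and 245 CPM. Treated and untreated libraries did not overlap in either genotype, and untreated KO replicate 2 was far below the other 4 of its group. The response came to a log2 fold change of 2.73 (SE 0.14, edgeR adjusted p = 6.34e-07) in WT clones and 2.55 (SE 0.31, edgeR adjusted p = 7.22e-04) in those labelled KO. Without KO replicate 4 the latter was 2.52 with an edgeR adjusted p of 0.0107, just past the cut-off.

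DTX3L, the ubiquitin ligase that pairs with PARP9, had 74.9, 66.7, 56.7, 59.5 and 52.2 CPM in the untreated WT clones and 424, 410, 341, 362 and 329 CPM after IFNγ. The untreated libraries labelled KO had 87.4, 25.55, 92.2, 70.7 and 82.9 CPM, and the treated ones 472, 356, 552, 433 and 446 CPM. The treated libraries all lay above the untreated ones, and KO replicate 2 was the lowest of its group in both treatments. The log2 fold change was 2.57 (SE 0.13, edgeR adjusted p = 4.14e-07) in WT clones and 2.65 (SE 0.30, edgeR adjusted p = 4.51e-04) in those labelled KO. Clone by clone, the 5 WT responses of DTX3L were the tightest of the members that rose, between 2.50 and 2.65 on the log2 scale.

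PARP14, a large protein with several macrodomains that adds single ADP-ribose units, had 77.5, 67.1, 51.3, 59.7 and 46.2 CPM in the untreated WT clones and 538, 607, 456, 406 and 482.5 CPM after IFNγ. The untreated libraries labelled KO had 73.9, 34.9, 71.1, 60.95 and 80.9 CPM, and the treated ones 527, 442, 545, 619 and 603 CPM. PARP14 had the largest response of the members in both genotypes, a log2 fold change of 3.03 (SE 0.17, edgeR adjusted p = 1.12e-06) in WT clones and 3.09 (SE 0.22, edgeR adjusted p = 1.34e-05) in those labelled KO. Ranked by fold change, it was number 176 of 19522 genes in WT clones and 158 of 19385 in the others.

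PARP10, which adds single units and also binds ubiquitin, varied most between clones before treatment. Its untreated WT levels were 57.5, 55.5, 52.7, 41.2 and 11.6 CPM, and its treated ones 213, 227, 232, 175 and 136 CPM. The untreated libraries labelled KO had 46.0, 4.20, 48.9, 42.6 and 54.4 CPM, and the treated ones 151, 114, 146, 195 and 214 CPM. Treated libraries did not overlap untreated ones in either genotype, and WT replicate 5 and KO replicate 2 stood low before treatment and lowest of their group after it. This gave a log2 fold change of 2.16 (SE 0.35, edgeR adjusted p = 0.00261) in WT clones and 2.06 (SE 0.51, edgeR adjusted p = 0.0316) in those labelled KO. The WT call was lost when any one of WT replicates 1 to 4 was left out (edgeR adjusted p from 0.0165 to 0.02), and the gene was called in the clones labelled KO without KO replicate 2, where the log2 fold change was 1.88 (edgeR adjusted p = 1.51e-04).

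PARP12, a zinc finger PARP related to ZC3HAV1, had 14.0, 9.60, 13.4, 17.99 and 21.0 CPM in the untreated WT clones and 45.9, 40.8, 50.6, 58.05 and 67.8 CPM after IFNγ. The libraries labelled KO had 14.4, 12.5, 14.1, 14.4 and 11.0 CPM untreated and 44.1, 59.1, 48.0, 45.9 and 50.7 CPM treated, without overlap. WT replicate 5, low for PARP10, was highest for PARP12 in both treatments, and untreated KO replicate 2 did not stand apart. The log2 fold change was 1.78 (SE 0.23, edgeR adjusted p = 5.01e-04) in WT clones and 1.90 (SE 0.13, edgeR adjusted p = 7.93e-06) in those labelled KO.

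PARP8, a mono-ADP-ribosylating enzyme of which less is known, had 37.2, 43.0, 44.0, 36.6 and 27.3 CPM in the untreated WT clones and 91.0, 91.0, 98.1, 80.0 and 70.3 CPM after IFNγ. The libraries labelled KO had 32.8, 29.0, 54.2, 41.2 and 57.9 CPM untreated and 93.4, 50.6, 146, 125 and 97.75 CPM treated. The groups were separate in WT clones and overlapped in the others, where treated KO replicate 2 fell within the untreated range. The response came to a log2 fold change of 1.18 (SE 0.14, edgeR adjusted p = 2.91e-04) in WT clones, the smallest of the 7 rises, and 1.25 (SE 0.28, edgeR adjusted p = 0.0209) in those labelled KO. When treated and untreated libraries were paired by clone (a replicate block), the KO response was 1.22 and was called (edgeR adjusted p = 0.0022).

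PARP3, the member of the strand-break group that changed, had 19.3, 24.5, 19.7, 15.9 and 18.6 CPM in the untreated WT clones and 53.1, 82.8, 84.8, 51.6 and 59.7 CPM after IFNγ. The libraries labelled KO had 22.9, 11.1, 15.4, 11.5 and 15.1 CPM untreated and 63.0, 30.3, 43.5, 63.6 and 31.1 CPM treated. The treated libraries were above the untreated ones in both genotypes. The log2 fold change was 1.75 (SE 0.17, edgeR adjusted p = 8.28e-05) in WT clones and 1.60 (SE 0.28, edgeR adjusted p = 0.00606) in those labelled KO. The latter call was lost without any one of KO replicates 1, 3, 4 and 5 (edgeR adjusted p from 0.0127 to 0.0485), with log2 fold changes from 1.36 to 1.71.

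**Figure D2:**
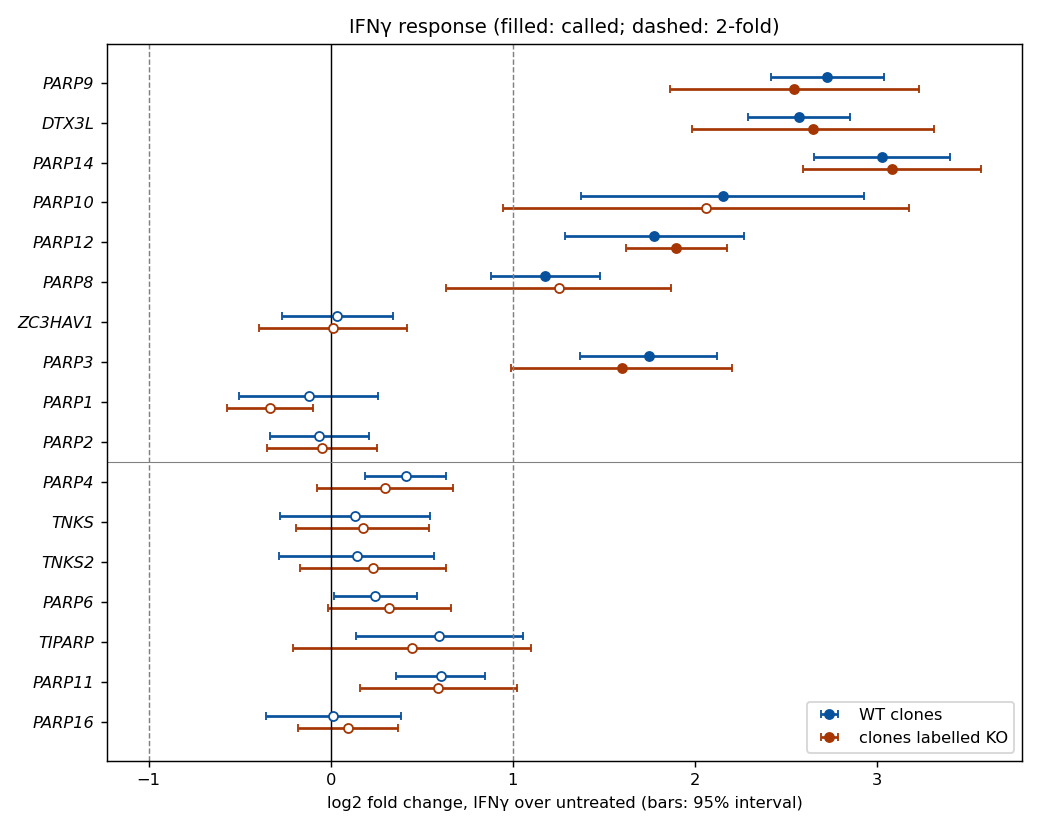
Log2 fold change of IFNγ over untreated libraries (x axis) with its 95% interval for the 10 members and, under the line, 7 other PARP genes, in WT clones (blue) and clones labelled KO (red), with called values filled and a dashed line at 2-fold. PARP14 lies farthest right in both genotypes (3.03 and 3.09), while the intervals of ZC3HAV1 and PARP2 cross 0 in both.

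PARP1 and PARP2, the chain-building enzymes of the break response, did not rise. PARP1 had 327, 300.4, 279, 302 and 191 CPM in the untreated WT clones and 291, 281, 292, 271 and 167 CPM after IFNγ, a log2 fold change of -0.12 (95% interval -0.50 to 0.26, edgeR adjusted p = 0.741). Among libraries with the KO label it had 329, 347, 357, 334 and 298 CPM untreated and 284, 294, 213, 265 and 268 CPM treated. These 2 groups did not overlap, with a log2 fold change of -0.33 (95% interval -0.57 to -0.10) that missed the cut-offs (edgeR adjusted p = 0.0854). PARP2 ranged from 61.5 to 93.8 CPM over the 20 libraries, with log2 fold changes of -0.06 (95% interval -0.34 to 0.21) in WT clones and -0.05 (95% interval -0.35 to 0.25) in those labelled KO.

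ZC3HAV1, the antiviral zinc finger protein, is a known interferon-stimulated gene in other cells but was near 0 here on the log2 scale. It had 49.4, 47.7, 39.7, 45.4 and 45.6 CPM in the untreated WT clones and 42.2, 47.9, 64.05, 38.7 and 43.3 CPM after IFNγ. The libraries labelled KO had 50.9, 47.1, 49.1, 47.0 and 49.4 CPM untreated and 37.0, 34.45, 58.4, 69.75 and 46.4 CPM treated. The groups overlapped in both genotypes, and the treated libraries spread more widely than the untreated ones (SD 9.95 against 3.65 CPM in WT clones and 14.8 against 1.65 CPM in those labelled KO), a difference in spread that was not tested. This gave a log2 fold change of 0.04 (95% interval -0.27 to 0.34) in WT clones and 0.01 (95% interval -0.39 to 0.42) in those labelled KO. A 2-fold change lies outside both intervals.

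Corrected for exon length, in CPM per kb of annotated exon, PARP1 stood highest of the members in the untreated WT clones, at 70.3 ± 13.2 (SD, n = 5), followed by PARP2 at 41.0 ± 5.33. The next were DTX3L at 10.8 ± 1.55 and PARP10 at 10.4 ± 4.51, which did not differ beyond their spread, then PARP3 at 7.32 ± 1.16 and PARP14 at 7.17 ± 1.48, whose ranges also overlapped. ZC3HAV1 (5.53 ± 0.44), PARP8 (4.28 ± 0.76), PARP9 (4.20 ± 0.70) and PARP12 (3.19 ± 0.92) came last. After IFNγ the WT level of DTX3L, 64.7 ± 7.31 CPM per kb, and that of PARP14, 59.2 ± 9.21, lay within the range of PARP1 (65.5 ± 13.3). PARP10 followed at 46.6 ± 9.62, PARP2 at 39.7 ± 5.82, PARP9 at 28.1 ± 3.07 and PARP3 at 24.8 ± 6.04. PARP12 (11.0 ± 2.23), PARP8 (9.80 ± 1.25) and ZC3HAV1 (5.73 ± 1.21) remained at the bottom of the order. The libraries labelled KO also had PARP1 (83.7 ± 5.72) and PARP2 (42.6 ± 6.33) on top before treatment, and DTX3L (78.3 ± 12.3), PARP1 (66.5 ± 7.83) and PARP14 (65.0 ± 8.36) after it, with overlapping ranges.

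PARP9 and DTX3L act as a complex, so their ratio was followed. The log2 ratio of PARP9 to DTX3L, both per length, was -1.36 ± 0.13 (SD, n = 5) in untreated and -1.20 ± 0.11 in treated WT clones, and -1.42 ± 0.18 in untreated and -1.50 ± 0.28 in treated libraries labelled KO. The ranges of the 4 groups overlapped. DTX3L was the higher in each of the 20 libraries, by 1.05 log2 units at least and 1.83 at most, on a scale where the level rests on the annotated exon length.

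**Figure D3:**
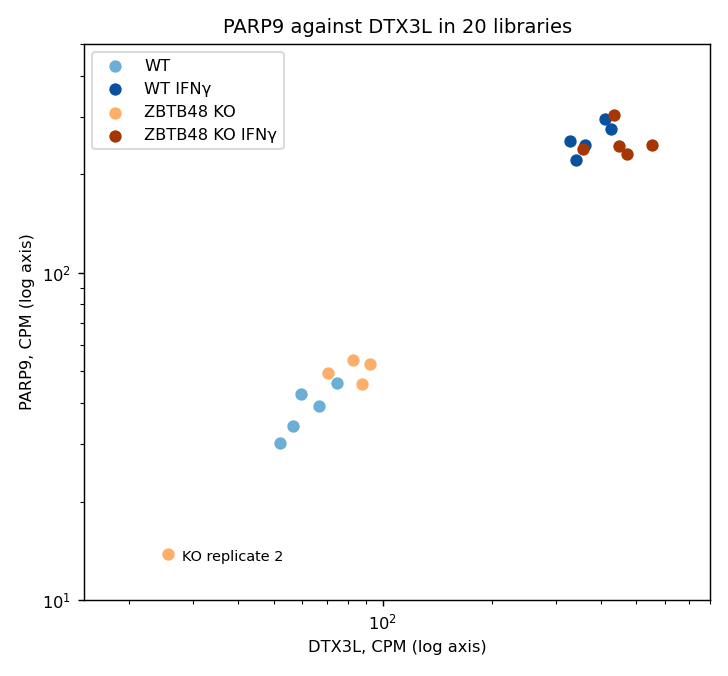
PARP9 against DTX3L, both in CPM on log axes, in the 20 libraries coloured by group. Untreated and treated libraries form 2 clouds, and untreated KO replicate 2 (13.8 and 25.55 CPM) lies apart below the others.

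Beyond the groups, DTX3L was the gene most like PARP9. Over the 20 libraries, with the mean of each group taken off the log2 CPM, it ranked number 1 of 21051 genes by Pearson's r (0.91), followed by TLR3 (0.90), SLC15A3 (0.89), PARP10 (0.88) and GBP3 (0.88). PARP14 itself was matched best by COPB2 (0.88), MCF2L (0.88), PARP9 (0.87), UBE2Q2L (0.87) and LOC100507412 (0.87), with DTX3L in place 8. Both orders rest on KO replicate 2. Without its 2 libraries the r of PARP9 with DTX3L was 0.49 (place 1049 of 21051) and with PARP14 0.79 (place 8). PARP12 did not follow this group, with an r of -0.08 with PARP9 and -0.37 with PARP14 over 20 libraries. PARP1 and PARP2 had an r of 0.64 with each other, and 0.62 without KO replicate 2. PARP1 was closer to PARP10 (0.75) than to PARP2 without KO replicate 2, but not over 20 libraries (0.33). PARP2 and PARP10 had 0.50 without KO replicate 2 and 0.12 over 20 libraries. These are descriptions of libraries that share clones and depth, and carry no test.

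**Figure D4:**
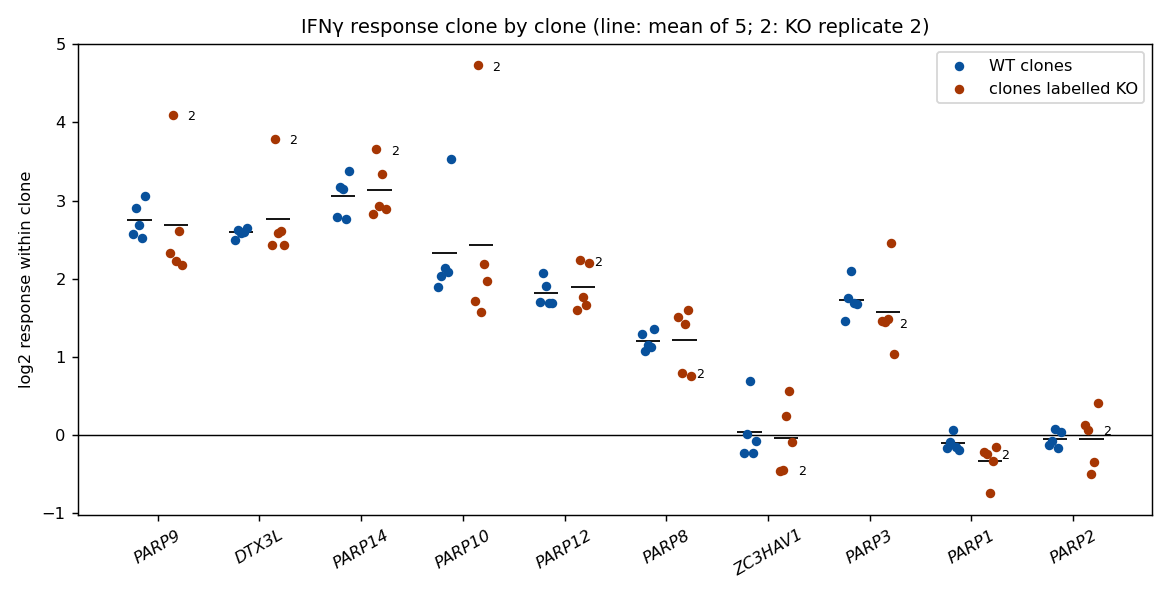
Log2 response to IFNγ within each clone (y axis) for the 10 members, WT clones in blue and clones labelled KO in red, with a line at the mean of 5 and a 2 beside KO replicate 2. KO replicate 2 has the largest response of PARP9 (4.10), DTX3L (3.80), PARP14 (3.66) and PARP10 (4.73), and of PARP12 by a small margin (2.23 against 2.20 in KO replicate 5), but not of PARP3 or PARP8.

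KO replicate 2 combined low untreated levels with treated levels near those of the other clones. Its untreated PARP9, DTX3L, PARP14 and PARP10 levels were the lowest of the 20 libraries. Its responses within the clone were the largest, 4.10, 3.80, 3.66 and 4.73 on the log2 scale against 2.18 to 2.62, 2.43 to 2.61, 2.83 to 3.34 and 1.57 to 2.19 in the other clones labelled KO, of which replicates 4 and 5 were paired by their labels. OAS3, a sensor of double-stranded RNA, was also low before treatment, at 2.06 CPM in untreated KO replicate 2 and 3.37 CPM in untreated WT replicate 5 against 16.6 to 39.9 CPM in the other untreated libraries. OAS3 stayed low after IFNγ, at 29.9 and 36.5 CPM in these 2 clones against 90.8 CPM or more in the other treated libraries. PARP10 was also lowest in these 2 clones after IFNγ, at 114 and 136 CPM, against 145.7 CPM or more in the other treated libraries. ZBTB48 was at 1.94 CPM in untreated KO replicate 2, and its part in the low levels was not tested. Without KO replicate 2, 7 members were called in the clones labelled KO.

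**Figure D5:**
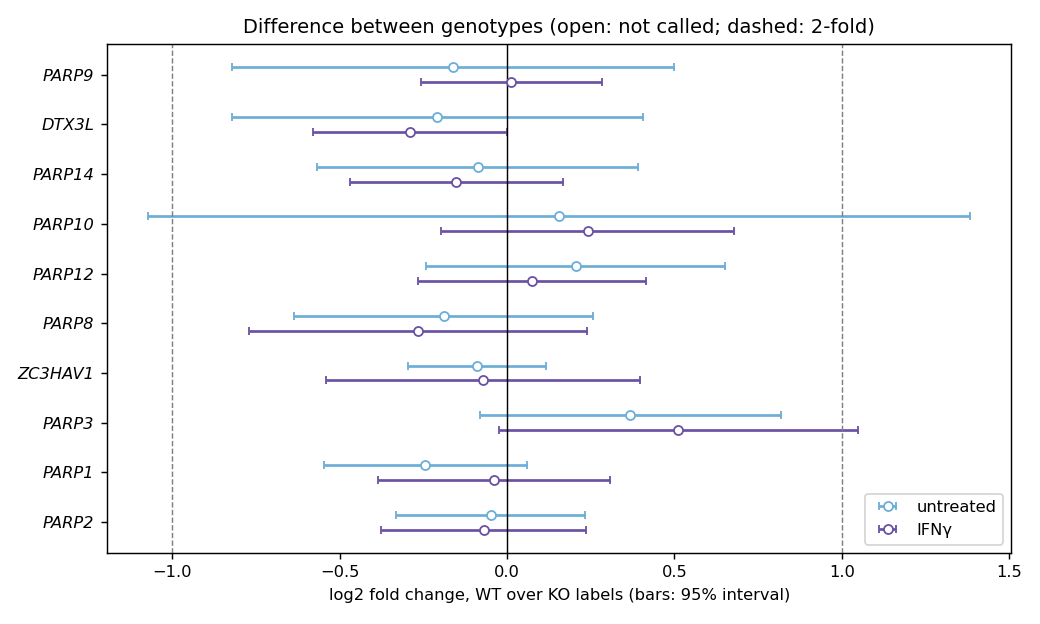
Log2 fold change of WT over KO labels (x axis) with its 95% interval for the 10 members, in untreated (light blue) and IFNγ-treated (purple) libraries, with a dashed line at 2-fold. No member is called, and the values lie between -0.29 (DTX3L after IFNγ) and 0.51 (PARP3 after IFNγ).

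Comparing WT with KO labels asks whether ZBTB48 bears on these genes. None of the 10 members was called by edgeR in untreated libraries, where 3 of 19505 genes (0.0154%) were called, nor in treated ones, where 3 of 19383 (0.0155%) were. At an unadjusted p under 0.05 the count was also 0 of 10 in both comparisons, against 935 (4.79%) and 843 (4.35%) of all genes tested, and DESeq2 called 0. Each member's WT and KO ranges overlapped in both treatments. The share of all genes that did so was not counted, so this overlap does not set the members apart. Untreated, the log2 fold changes of WT over KO lay between -0.24 (PARP1, 95% interval -0.55 to 0.06) and 0.37 (PARP3, 95% interval -0.08 to 0.82). After IFNγ they lay between -0.29 (DTX3L, edgeR unadjusted p = 0.0502) and 0.51 (PARP3, 95% interval -0.02 to 1.05). Most intervals exclude a 2-fold difference, but that of untreated PARP10 (-1.07 to 1.38) does not, nor does that of PARP3 after IFNγ. Without KO replicate 3, whose ZBTB48 mRNA was above the WT range, the range was -0.22 to 0.37 untreated and -0.21 to 0.48 treated, with no call.

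The IFNγ responses of the genotypes were also compared directly, over all 20 libraries. The difference between the responses, WT less KO, ranged over the members from -0.14 (PARP12, 95% interval -0.67 to 0.39) to 0.20 (PARP1, 95% interval -0.24 to 0.64) on the log2 scale. That of PARP10, which was called in WT clones only, was 0.08 (95% interval -1.26 to 1.42), and that of PARP8 was -0.09 (95% interval -0.76 to 0.58), so neither gene's response was shown to differ. No member was called, nor did any pass an unadjusted p under 0.05 (edgeR), and DESeq2 called 0. No gene of 21052 was called (0%), and 86 (0.409%) had an unadjusted p under 0.05. With so few genes at that p, a count of 0 members does not set them apart. The fit and its intervals took both libraries of each clone as independent, although those of most clones resembled each other. With the clone as a block, 0 members and 0 genes were called.

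Other PARP genes were not called. Of 8 listed, 7 had enough counts to be tested, and 0 were called in either genotype by edgeR or DESeq2, with 4 in WT clones and 1 in those labelled KO at an unadjusted p under 0.05, which 24.9% and 23.5% of all genes passed. At an adjusted p under 0.05, PARP11, which adds single units, rose by 0.61 on the log2 scale (SE 0.11, edgeR adjusted p = 0.00506) and PARP4, the PARP of the vault particle, by 0.41 (SE 0.10, edgeR adjusted p = 0.0234) in WT clones. In the clones labelled KO the values were 0.59 (edgeR adjusted p = 0.0916) and 0.30 (edgeR adjusted p = 0.328). TIPARP, a target of the dioxin receptor, had 0.60 (edgeR adjusted p = 0.0961) in WT clones. TNKS and TNKS2, the tankyrases, PARP6 and PARP16 had log2 fold changes from 0.02 to 0.25 in WT clones. PARP15, which lies between DTX3L and PARP14, was at 0.204 CPM or less in all 20 libraries, at most 12 counts, and was not tested.

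Neighbours of PARP9 to PARP14, PARP3 and PARP12 were looked at after the changes had been seen. Within 100 kb of the block from PARP9 to PARP14, KPNA1 (log2 fold change -0.08 in WT clones), HSPBAP1 (0.35) and SLC49A4 (0.05) were expressed and not called. Of the genes beside PARP3, RRP9 (0.42), PCBP4 (-0.15) and ABHD14B (-0.03) were not called. Nor were ABHD14A (-0.665 in WT clones and -0.610 in those labelled KO) and ACY1 (-0.837 and -0.008), the latter at 1.095 CPM or less. Beside PARP12, KDM7A, a histone demethylase, rose by 1.66 (edgeR adjusted p = 0.00571) in WT clones and 1.74 (edgeR adjusted p = 0.00445) in those labelled KO (1.47, edgeR adjusted p = 0.215, without KO replicates 4 and 5).

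The rest of the pathway was followed by fixed lists. In the list for the IFNγ pathway itself, STAT2, IRF1, IRF9 and JAK2 rose in both genotypes, IRF1 by 4.96 and 4.72 on the log2 scale, and the receptor chain IFNGR1 was not called (0.45 and 0.51). Of 6 partners of ZC3HAV1, 2 rose past the cut-offs in each genotype, against 2.48% and 1.70% of all genes: TRIM25, the ubiquitin ligase that serves as its cofactor (1.36 and 1.42), and the RNA sensor RIGI, listed as DDX58 (1.62 and 1.69). OAS3 had 2.04 in WT clones (edgeR adjusted p = 0.0367), which passes the looser rule only. DESeq2 called 3 and 4 of these 6 without shrinkage and 3 and 2 with it. Without KO replicates 4 and 5 the KO values were 1.48 for TRIM25 (edgeR adjusted p = 0.08), 1.71 for DDX58 (edgeR adjusted p = 0.0331) and 4.78 for IRF1 (edgeR adjusted p = 0.0223), and STAT2 was called (1.96, edgeR adjusted p = 0.00622).

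Among 13 genes of NAD metabolism, 11 of them tested, NAMPT, the rate-limiting enzyme of NAD+ salvage, was called in the clones labelled KO (1.06, edgeR adjusted p = 0.00259) and missed the cut-off in WT clones (1.08, edgeR adjusted p = 0.0216). The KO call was lost without KO replicates 4 and 5 (1.08, edgeR adjusted p = 0.167), and DESeq2 called 1 gene of this list in each genotype without shrinkage and 0 with it. None of 10 partners of PARP1 in strand-break repair, such as XRCC1 and HPF1, was called by edgeR or DESeq2 in either genotype, with 2 in WT clones and 0 in those labelled KO at an unadjusted p under 0.05 (24.9% and 23.5% of all genes). Of 7 enzymes that remove ADP-ribose, 0 were called by either tool (1 and 2 at an unadjusted p under 0.05), and ADPRS had 0.46 in WT clones (edgeR adjusted p = 0.0336). Of 4 relatives of DTX3L, 0 were called (1 and 0 at an unadjusted p under 0.05), and DTX1 had -0.75 in WT clones (edgeR adjusted p = 0.0387). Between WT and KO labels 0 genes of these lists were called in either treatment, against 0.0154% of all genes untreated and 0.0155% treated. With so few genes called, a count of 0 does not set these lists apart.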

How the data were processed

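The authors sequenced stranded poly(A) libraries, aligned the reads to GRCh38 with STAR 2.7.9a and deposited raw counts per RefSeq gene from featureCounts 2.4.0, per the submitters' notes, which also name DESeq2 1.40.1. All 20 columns were matched to a sample by name. Here edgeR 4.0.16 (TMM, its filter on low counts, robust quasi-likelihood test, Benjamini-Hochberg adjustment over all genes tested) compared 5 with 5 libraries at a time, and all 20 for the difference between responses. DESeq2 1.42.0, named in the paper's methods with normal shrinkage, was an alternative, with R 4.3.3. Genes were called at an adjusted p under 0.01 and more than 2-fold. Standard errors came from the fold change and the F statistic. The fit was tested on simulated data. The members and lists were chosen with earlier results of these data known, and the genes most like PARP9 and PARP14 by the largest r.

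Deviations from the group mean over 14927 genes correlated at r of 0.76 to 0.88 between treated and untreated libraries of each WT clone and at 0.76, 0.84 and 0.68 for KO replicates 1 to 3, but at 0.03 and 0.10 for KO replicates 4 and 5, where each treated library correlated best with the other number (0.82 and 0.75). The labels name the clone. WT and KO numbers did not pair (r from -0.23 to 0.26). Other settings tried were DESeq2's size factors, library totals, no filter, all 20 libraries together, edgeR's glmTreat, a block, and leaving out each clone. The block was the clone within a genotype and for the difference between responses. Between WT and KO labels it was the replicate number, which pairs unrelated clones. KO replicates 4 and 5 were left out of the list genes' KO response after the data had been seen. Named genes were the members, the other PARP genes, ZBTB48 and list genes called with IFNγ, and others are named after their values were seen. Some genes of the lists are not reported here. Promoter sequences are RefSeq's.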

Additional observations from a re-analysis of the deposited data

Results flagged for a closer look

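Of 60 groups of 5 values tested for an isolated highest or lowest value with Dixon's criterion (10 members, as levels in 4 groups and as responses of 2 genotypes), 9 were past it, where chance gives about 3 (1 in 20), and 5 of the 9 concern KO replicate 2. The groups are not independent, since responses come from the same libraries as levels and several members vary together. A single library can therefore be counted more than once, and 9 against 3 is not a test. Untreated KO replicate 2 was isolated at the low end for PARP9 (13.8 CPM) and PARP10 (4.20 CPM). Its responses were isolated at the high end for PARP9 (4.10 on the log2 scale), DTX3L (3.80) and PARP10 (4.73). The response of PARP10 in WT replicate 5 (3.54) and that of ZC3HAV1 in WT replicate 3 (0.69) were isolated above the other WT clones. Treated KO replicate 4 stood above its group for PARP9 (304 CPM), and treated WT replicate 5 stood below its group for PARP1 (167 CPM). What sets these libraries apart was not tested.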

How the results depend on the processing

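In WT clones the 7 member calls were also made under DESeq2's size factors, library totals, no filter, DESeq2 with and without shrinkage, all 20 libraries together and the clone as a block, while edgeR's glmTreat against a 2-fold change left 4, and leaving out 1 clone left 6 to 7. In the clones labelled KO the 5 calls became 7 with DESeq2 or all 20 libraries, 6 with the replicate block, 4 with glmTreat, and 3 (without KO replicate 4) to 7 (without KO replicate 2) with 1 clone left out. Without KO replicates 4 and 5 together 0 of 10 members and 22 of all genes were called (edgeR), although PARP14 (3.04, adjusted p = 0.0197) and PARP12 (1.86, adjusted p = 0.0153) kept their size, and with the block as well 4 were called, without PARP9 (2.84, adjusted p = 0.0319) and DTX3L (2.91, adjusted p = 0.0101) but with PARP8 (1.23). The block changed no other member's call in any comparison, and no setting called a member between WT and KO labels or for the difference between responses. Over all genes, the IFNγ calls in WT and KO clones, 585 and 379, were 1414 and 721 with the block, 976 and 825 by DESeq2 without shrinkage, 187 and 115 by glmTreat, 2202 and 1528 by the looser rule, 318 to 457 and 131 to 490 with 1 clone left out, and in KO clones 616 by shrunken DESeq2 and 642 with all 20 libraries. The 3 calls between WT and KO labels were 13 untreated and 16 treated by DESeq2, 5 and 6 with shrinkage or with all 20 libraries, 5 and 5 without the filter, and 6 untreated by the looser rule. With the block, which pairs unrelated clones in this comparison, 1 was left untreated.

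Of 890 values of the members under other settings, 812 kept their sign and call, 20 lost a call and 12 gained one. Another 46 changed sign, all within 0.242 of 0 on the log2 scale and none a call, and the cause was not tested. For the IFNγ response, ZC3HAV1 turned to -0.026 in WT and -0.036 in KO clones with library totals, to -0.039 with the block, -0.204 without KO replicates 4 and 5 and -0.242 with both, and with 1 clone left out it ranged from -0.138 to 0.115 in WT and -0.167 to 0.147 in KO clones, and PARP2 from -0.157 to 0.071 in KO clones. Between genotypes without KO replicates 4 and 5, untreated PARP9 was 0.043 and PARP14 0.012, and treated ZC3HAV1 0.143. With 1 clone left out, untreated PARP10 ranged from -0.136 to 0.400, PARP14 from -0.247 to 0.009 and PARP2 from -0.126 to 0.015, and treated PARP9 from -0.039 to 0.091, PARP1 from -0.111 to 0.079, PARP12 from -0.043 to 0.155 and ZC3HAV1 from -0.207 to 0.089. For the difference between responses PARP10 was -0.047 with the block and -0.204 without KO replicates 4 and 5 as well, where PARP9 was -0.100 and PARP2 0.050 (0.047 without the block). With 1 clone left out the ranges were -0.160 to 0.047 (DTX3L), -0.063 to 0.260 (PARP10), -0.146 to 0.035 (PARP14), -0.145 to 0.090 (PARP2), -0.225 to 0.017 (PARP8) and -0.164 to 0.189 (ZC3HAV1). Without length scaling the log2 ratio of PARP9 to DTX3L was -0.69, -0.53, -0.75 and -0.83 in the order of the groups above. Depth did not limit the members, all with at least 208 counts in a library.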
